A study of Mus musculus with 6 samples.

Results

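The genes described here make the ribosome, start translation, transcribe ribosomal RNA or process RNA, and were measured in adipose stromal cells (ASCs), the fibroblast-like progenitors of fat, from 2 depots of male mice. They are the 136 probe sets in the authors' deposited comparison table whose gene symbol begins with Rpl, Rps, Eif, Ddx, Dhx, Srsf, Hnrnp, Polr, Nop with a digit, Utp or Prpf, leaving out Y-linked Eif and Ddx genes. They are part of 3541 probe sets of that table found among the 23531 with array values, and they carry 63 gene symbols. No symbol beginning with Srsf or Utp was in the table. The table holds only probe sets that passed the authors' paired test between depots at an unadjusted p below 0.05. The depot difference therefore chose the members, and their differences are given as a description with no test.

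The study compared 3 subcutaneous pools with 3 perigonadal pools of ASCs (perigonadal fat lies beside the gonads), with 1 Affymetrix array per pool. Per the labels, cells were freed from the tissue, sorted magnetically as CD45-CD31-Sca1+ (without the leukocyte and endothelial markers, with a progenitor marker) and lysed without culture. The labels name no strain, age, genotype or treatment for either group. They give 6 animals and independent pools, without saying whether 6 counts each pool or the study, or whether equally numbered pools share animals.

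A ribosome is built from ribosomal RNA and a fixed set of proteins in a small and a large subunit, assembled largely in the nucleolus. RNA polymerase I transcribes the large ribosomal RNA precursor, and small nucleolar RNPs and helicases take part in its processing. Initiation factors then place the ribosome at the start codon, and kinases that phosphorylate eIF2 alpha slow this step. Messages of ribosomal proteins typically begin with a run of pyrimidines, through which growth signals acting via mTOR and LARP1 control their translation.

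The pyrimidine run was looked for in the RefSeq promoter windows (GRCm38.p6), as at least 8 C or T in a row on the transcribed strand within 30 bases of the annotated start. Windows were found for 49 of the 63 genes. A run was present in 24 of 28 windows of ribosomal protein members (85.7%), against 27.3% of all 32851 windows. It was in none of the 12 windows of initiation factor members or the 3 of nucleolar members. The initiation factor windows covered only 6 of the 10 genes of that class, among them the Argonaute gene Ago1 (symbol Eif2c1). Windows from 40 bases before to 30 after the start are shown for ribosomal protein genes of both subunits, with the run in capitals. In Rps6 and Rpl15 the run, beginning at -1 and -4, spans the annotated start. In Rps25 (14 bases from -22) and Rpl13 (10 bases from -16) it lies wholly before that start. By this annotation it is there outside the message, and the counts do not separate such runs from those at the start. The window of Eif2ak2, which encodes the double-stranded-RNA kinase PKR, follows with a match in capitals to the core of the interferon-stimulated response element (GAAA, any 2 bases, GAAA). That motif, searched on both strands of the longer windows from 250 bases before to 50 after the start, was in 3.44% of all windows. It was also in 5 of the 28 ribosomal protein windows (17.9%). The E-box CACGTG, bound by MYC, was in 8 of 61 member windows (13.1%) and 7.15% of all, and CCAAT, on either strand, in 25.0% of ribosomal protein windows and 37.4% of all.
Rps6 chr4:86857338-86857407 (- strand): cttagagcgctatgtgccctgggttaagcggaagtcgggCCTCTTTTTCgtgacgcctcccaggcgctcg
Rps25 chr9:44407674-44407743 (+ strand): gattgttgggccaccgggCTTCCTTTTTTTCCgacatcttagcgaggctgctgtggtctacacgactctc
Rpl13 chr8:123102310-123102379 (+ strand): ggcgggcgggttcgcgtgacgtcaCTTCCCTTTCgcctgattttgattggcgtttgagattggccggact
Rpl15 chr14:18270957-18271026 (- strand): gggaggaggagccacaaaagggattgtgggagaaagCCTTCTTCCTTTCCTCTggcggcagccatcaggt
Eif2ak2 chr17:78882543-78882612 (- strand): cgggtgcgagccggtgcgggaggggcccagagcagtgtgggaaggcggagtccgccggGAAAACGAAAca

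The deposited values are normalized intensities on a linear scale. A difference is given as log2(intensity + 1) of perigonadal pools less that of subcutaneous pools, so it is understated for dim probe sets. Array medians lay between 6.44 and 6.96. Across probe sets, log2 values of arrays within a depot correlated at 0.991 to 0.994 and between depots at 0.978 to 0.981. Most named markers of other cells differed between depots. Markers could be named only where the authors' test had selected them for a depot difference, so their movement follows from that choice. The summed intensity of the 6 named of 11 mesothelial markers was 26.9 to 33.6 in subcutaneous and 187 to 245 in perigonadal pools. Most of the perigonadal sum was Wt1, which averaged 4.18 in subcutaneous and 141 in perigonadal pools (difference 4.78). The other named mesothelial markers differed less, by 0.68 (Krt19) to 2.27 (Upk3b). Whether the Wt1 signal came from mesothelial cells was not tested. The summed intensity of 3 of 6 pericyte and smooth muscle markers was 20.9 to 31.7 and 86.5 to 121. The sum of 3 of 5 Schwann cell markers was 50.8 to 61.4 against 18.4 to 20.7, and that of 5 of 9 stromal markers 2653 to 2818 against 1635 to 1839. The 1 named of 10 leukocyte markers, Itgam, stayed near the bottom of the scale at 2.29 to 2.54 in all pools. Tek, the 1 named of 6 endothelial markers, was 121 to 139 against 73.7 to 79.6. None of 5 adipocyte markers was named, which does not show that they were absent, and no named marker was listed at 0. The part of other cells in the results below was not tested, and in these bulk samples fewer cells of a type and less RNA per cell cannot be told apart.

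Most members had slightly lower means in perigonadal ASCs. A negative difference was seen for 120 probe sets and a positive one for 16. Their median was -0.096, against -0.010 over all 23531 probe sets. Over the 3541 probe sets of the authors' table it was -0.13, with 2021 negative and 1520 positive. The members' median was thus less negative than that of the table they were taken from, but negative signs were more frequent among the members. The nucleolar proteins stood on the positive side (median 0.50), as did the hnRNP proteins (0.19). The eIF2 alpha kinases had the most negative median (-0.66). The medians were -0.096 for large-subunit and -0.093 for small-subunit ribosomal proteins, -0.21 for initiation factors, -0.23 for helicases and -0.23 for RNA polymerase subunits. A difference was called where limma, with the pool number as a block, gave a Benjamini-Hochberg adjusted p below 0.05 over all probe sets. By that rule 2 members were higher, where 4.05% of all probe sets were, and 7 were lower, where 5.47% were. In all, 6.62% of members were called, against 9.51% of all probe sets. The intensities of the 3 perigonadal pools lay wholly below the subcutaneous ones for 88 members (14.4% of all probe sets) and wholly above for 15 (10.7%), and overlapped for 33. Since the authors' test chose the members, nothing is read from these counts, and the agreement of all 3 pool pairs in direction for every member follows from that choice.

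**Figure D1:**
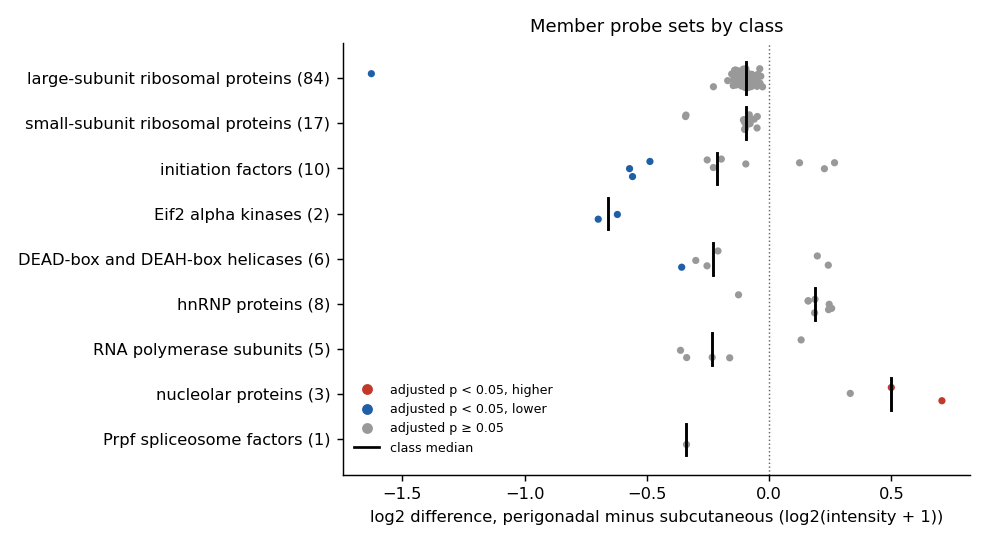
Log2 difference between depots (perigonadal minus subcutaneous) of each of the 136 member probe sets, 1 dot each, by class, with the class median as a bar and limma calls in colour. Most ribosomal proteins sit in a narrow band just below 0, with Rps24-ps2 and Rps4y2 at -0.34, 1 Rpl5 probe set at -0.23 and Rpl39l at -1.63 outside it, while the 3 nucleolar proteins sit at 0.33 to 0.71.

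Ribosomal proteins made up 101 of the 136 probe sets and 33 of the 63 symbols, 22 of the large and 11 of the small subunit. All 101 had a lower mean in perigonadal pools, with a median difference in mean intensity of -6.42%. Leaving out Rpl39l, Rps4y2 and symbols marked -ps, which name pseudogenes, the remaining 96 probe sets ranged from -14.5% to -1.86%, at intensities of 117 to 1285. The median intensity over all 101 was 704, 715 and 727 in the subcutaneous arrays and 651, 677 and 687 in the perigonadal arrays. These 6 values did not overlap between depots, but the depot difference chose these probe sets, so nothing is read from this.

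**Figure D2:**
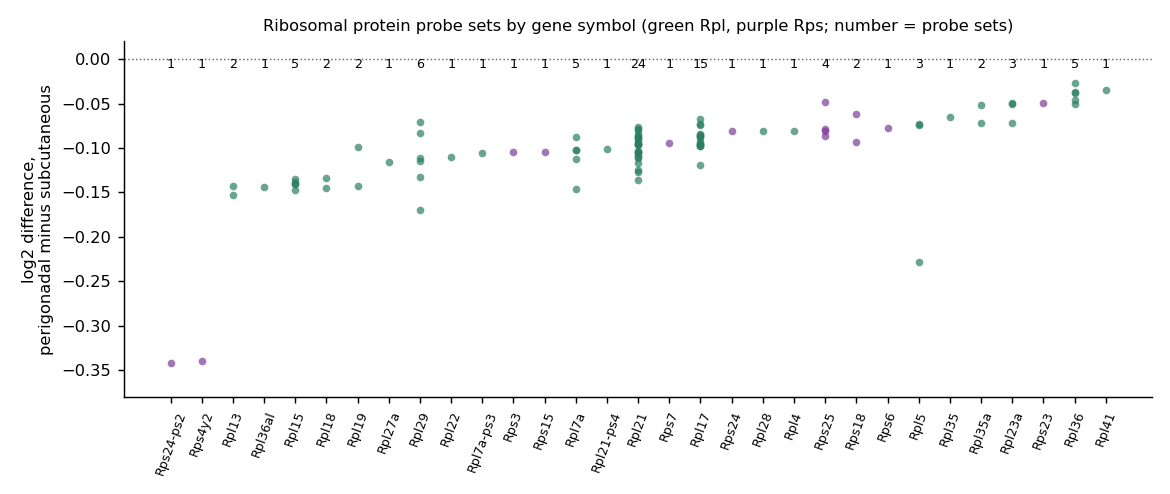
Log2 difference between depots (perigonadal minus subcutaneous, vertical axis) of ribosomal protein probe sets, 1 dot each, by gene symbol for the symbols shown (without Rpl39l), with the number of probe sets above each symbol. All dots lie below 0, and Rps24-ps2 and Rps4y2, both at -0.34, lie lowest.

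Pools of 1 depot read these probe sets closely alike. The median SD of log2 values among the 3 pools of a depot was 0.032 (subcutaneous) and 0.040 (perigonadal) for ribosomal protein members, against 0.11 and 0.12 over all probe sets. Over the probe sets of the authors' table it was 0.098 and 0.10. Most ribosomal protein members read far above the array medians, and spread was not compared at like intensity. The median standard error of their paired differences was 0.014, and limma's moderated error, which borrows from all probe sets, was 0.084. With the moderated error only 1 of the 101 was called, Rpl39l. The authors' selection favours probe sets with a small error, so this small spread is a description too.

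Rpl39l, a paralogue of the large-subunit gene Rpl39 best known from male germ cells, differed most of all members. Its intensity was 18.7, 17.1 and 14.7 in the subcutaneous pools, in order of pool number here and below, against 4.53, 4.13 and 5.65 in the perigonadal ones, a difference of -1.63 ± 0.13 (SE, n = 3 pools per depot). Every subcutaneous pool was above every perigonadal pool, whose values lay below the array medians. Because it is dim, the size of the difference depends on the pseudocount: it was -0.66 with 16 in place of 1.

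Among the other large-subunit proteins, 1 probe set of Rpl5, which binds 5S ribosomal RNA, had the widest difference. Its intensity was 288, 320 and 296 in subcutaneous and 230.5, 279 and 265 in perigonadal pools, a difference of -0.23 ± 0.088 that was not called. The depots did not overlap for it, but the other 2 Rpl5 probe sets differed by -0.074 and -0.073. Rpl13 was measured by 2 probe sets that resembled each other. One read 903, 886 and 885 in subcutaneous against 782, 813 and 825 in perigonadal pools (-0.14 ± 0.086, not called), without overlap. Rpl22, at 129, 133 and 132 against 117, 122 and 125, also did not overlap (-0.11 ± 0.085, not called). Rpl41, which encodes a very short basic protein, read 1202, 1285 and 1236 against 1173, 1249 and 1213. Its depots overlapped at a difference of -0.034. The 5 probe sets of Rpl36 lay between -0.050 and -0.027, and all 5 overlapped between depots.

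Small-subunit proteins gave differences of similar size. Rps6, the substrate of the S6 kinases, read 757, 782 and 753 in subcutaneous and 705, 752 and 716 in perigonadal pools (-0.077 ± 0.084, not called). The highest perigonadal pool lay just under the lowest subcutaneous one. Rps15 read 867, 904 and 888 against 795, 865 and 816 (-0.10 ± 0.085), also just without overlap and not called. Rps3, a protein of the messenger RNA entry channel, read 604, 563 and 541 against 549.8, 526 and 511, so that its depots overlapped (-0.11 ± 0.084, not called). Rps4y2 carries an old name: the RefSeq gene table now lists it as Rps4l, a transcribed pseudogene. It read 67.3, 55.9 and 59.6 against 48.7, 45.0 and 49.8 (-0.34 ± 0.090, not called), without overlap. Rps24-ps2 had as negative a value (-0.34) but was below the array median in all 6 pools and overlapped.

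Several symbols stood for many probe sets. Rpl21 had 24, with differences of -0.14 to -0.077 and 23 without overlap, and Rpl17 had 15, at -0.12 to -0.068. Rpl29 had 6, Rpl15, Rpl36 and Rpl7a had 5 each, and Rps25 had 4. Mammalian ribosomal protein genes have many near-identical processed copies, so such probe sets may measure the same messages and are not independent. In all, 16 of the 63 symbols had more than 1 member probe set. Every symbol kept 1 sign over its probe sets, negative for 52 symbols and positive for 11.

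Ribosomal protein probe sets also varied together between the pools of a depot. In 66 of the 101, from 20 symbols, pool 1 was the lowest of its depot in both depots. The number of the lowest pool was the same in both depots for 81 of the 101 (80.2%), against 38.7% of all probe sets and 58.1% of the comparison table's. The authors' paired test favours probe sets whose equally numbered pools deviate alike, and the members were chosen by it. Across the 101 probe sets, which share arrays and often sequence, the deviation of a pool from its depot mean correlated with that of its equally numbered counterpart at 0.69, 0.81 and 0.14 for pools 1, 2 and 3 (0.17, 0.16 and 0.053 over all probe sets). Not all genes followed 1 order. Rps25 was lowest in pool 1 in both depots for all its probe sets, for example 835, 912 and 901 against 778, 860 and 856 in pools 1 to 3. Rps3 was highest in pool 1 in both depots, as were all 5 probe sets of Rpl36 and 1 of the 2 of Rps18. The other Rps18 probe set was lowest in pool 1 in both depots. Probe sets of Rpl29 were among 11 lowest in pool 2 in both depots.

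**Figure D3:**
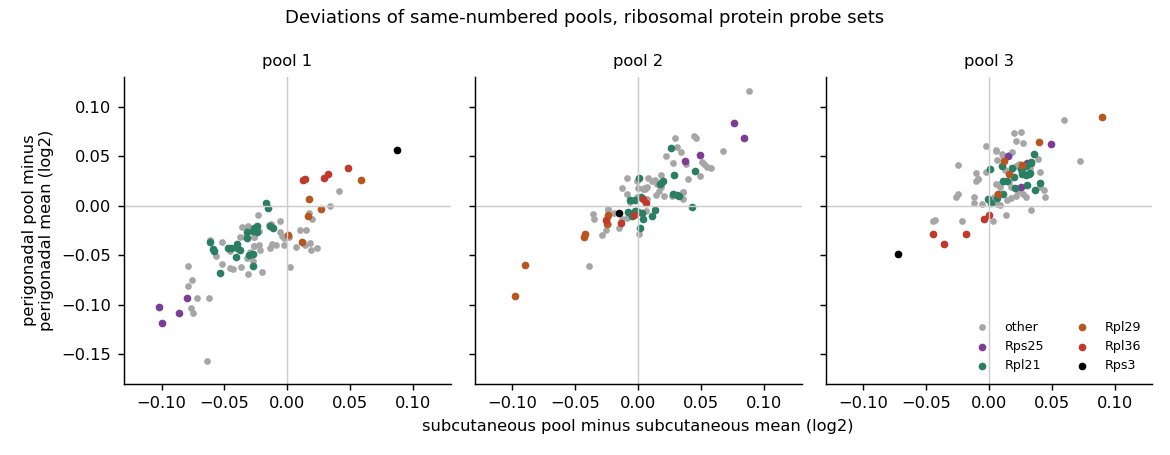
Deviation of each perigonadal pool from the perigonadal mean (vertical axis, log2) against that of the equally numbered subcutaneous pool (horizontal axis, log2), 1 panel per pool number, for 98 ribosomal protein probe sets without Rpl39l, Rps4y2 and Rps24-ps2. Most dots of pool 1 lie below 0 on both axes, whereas Rps3 and Rpl36 lie above 0 on both.

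All 3 nucleolar members had a higher mean in perigonadal ASCs, and 2 were called. Nop58, a core protein of the box C/D small nucleolar RNPs that guide ribosomal RNA methylation, read 139, 189 and 166 in subcutaneous and 247, 281 and 276 in perigonadal pools. Every perigonadal pool was above every subcutaneous one, at a difference of 0.71 ± 0.093, which was called. Nop16, a nucleolar protein of large-subunit assembly, read 34.1, 34.1 and 34.9 against 53.8, 46.8 and 46.8 (0.50 ± 0.092, called). Its depots did not overlap, and the call was lost without pool pair 1 or without pair 2. Nop14, known from yeast as a part of the small-subunit processome, read 63.2, 71.5 and 70.7 against 86.7, 89.0 and 83.1 (0.33 ± 0.091). It was without overlap but not called, and was called with a pseudocount of 16 or without the pool block.

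Of a list of 75 further ribosome biogenesis genes, 11 were named in the table; 10 had a positive difference and 3 were called, all higher, with a median of 0.22. These genes too were named only because the authors' test selected them. Higher calls made up 4.05% of all probe sets, and 783 of the 3541 in the authors' table. Nol10 averaged 9.84 in subcutaneous and 19.3 in perigonadal pools (0.90 ± 0.12, called), and Nolc1, a nucleolar phosphoprotein that binds small nucleolar RNPs, 62.8 and 95.7 (0.59 ± 0.10, called). Taf1d, a subunit of the RNA polymerase I selectivity factor, averaged 21.7 and 29.5 (0.42 ± 0.087, called). The 1 gene with a negative value was Bop1, of the large-subunit assembly complex PeBoW, at 11.6 and 9.68 (-0.24, not called).

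Of the 5 RNA polymerase members 4 had a negative difference, and none was called. Polr1b, the second-largest subunit of RNA polymerase I, read 8.83, 8.63 and 8.43 in subcutaneous and 6.55, 7.18 and 5.80 in perigonadal pools (-0.36 ± 0.091). Polr1c, shared by RNA polymerases I and III, read 63.6, 65.5 and 59.0 against 52.7, 47.7 and 47.9 (-0.34 ± 0.089). Both were without overlap. The depots overlapped for the other 3, Polr1d (-0.16), Polr3c (-0.23) and Polr3gl (0.13).

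Initiation factor members fell into both directions, with 7 of 10 negative and 3 called, all lower. Eif4b, which stimulates the cap-complex helicase eIF4A, read 195, 193 and 187 in subcutaneous and 141, 119 and 130 in perigonadal pools. The depots were well apart at -0.56 ± 0.091, and the call was lost without pool pair 2. Eif4ebp2, which binds the cap-binding protein eIF4E and blocks initiation until mTOR signalling releases it, read 118, 124 and 124 against 84.2, 78.0 and 83.4. It too was without overlap and called (-0.57 ± 0.088). Its relative Eif4ebp3 read 11.6, 12.1 and 11.9 against 10.1, 9.99 and 9.26 (-0.25 ± 0.087, not called). The depots did not overlap for it either.

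The third call, Eif2c1, bears a former symbol of Ago1, and Eif2c2 that of Ago2: both encode Argonaute proteins of the microRNA pathway and are no initiation factors. Eif2c1 read 15.4, 14.3 and 15.5 against 10.8, 10.5 and 10.1 (-0.49 ± 0.088, called), without overlap. Its call was lost without pool pair 1 or pair 2, and its difference was -0.23 with a pseudocount of 16. Eif2c2 read 38.1, 48.3 and 40.1 against 31.4, 43.2 and 33.4 (-0.23 ± 0.086, not called), and its depots overlapped, with pool 2 high in both.

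On the positive side stood Eif5a, a hypusine-bearing factor that helps ribosomes through difficult peptide bonds. It read 31.4, 32.3 and 31.2 against 37.5, 39.8 and 37.6 (0.27 ± 0.084, not called), without overlap. Eif6, which keeps the subunits apart and takes part in large-subunit assembly, read 65.9, 61.4 and 64.8 against 72.6, 74.7 and 77.8 (0.23 ± 0.087, not called). Eif1a, of the scanning complex, differed by 0.12 (not called), and both were without overlap. Eif2b4, a subunit of the exchange factor of eIF2, differed by -0.20, and Eif1, which guards start codon choice, by -0.096 with overlap. Neither was called.

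Both eIF2 alpha kinases among the members were lower in perigonadal ASCs and called. Eif2ak1, the heme-regulated kinase HRI, read 47.3, 39.8 and 45.8 in subcutaneous and 29.1, 25.5 and 30.9 in perigonadal pools (-0.62 ± 0.086). Eif2ak2, whose start window is printed above, read 34.3, 30.4 and 30 against 19.7, 20.1 and 17.3 (-0.70 ± 0.091). Neither overlapped, and with a pseudocount of 16 the difference of Eif2ak2 was -0.44. PKR is induced by interferon. Of 19 listed interferon-induced genes 15 were named, all with a negative difference, and 13 were called (median -1.02). Their summed intensity was 916 to 1095 in subcutaneous and 388 to 461 in perigonadal pools. They were named only because the authors' test selected them. Lower calls made up 5.47% of all probe sets, and 1049 of the 3541 in the authors' table. Whether interferon had a part in the Eif2ak2 difference was not tested. Cxcl10, a chemokine, averaged 212 and 73.1 (-1.54), and Rtp4 76.3 and 28.0 (-1.43). Ifih1, the RNA sensor MDA5, averaged 63.0 and 42.4 (-0.56), and these 3 were called.

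**Figure D4:**
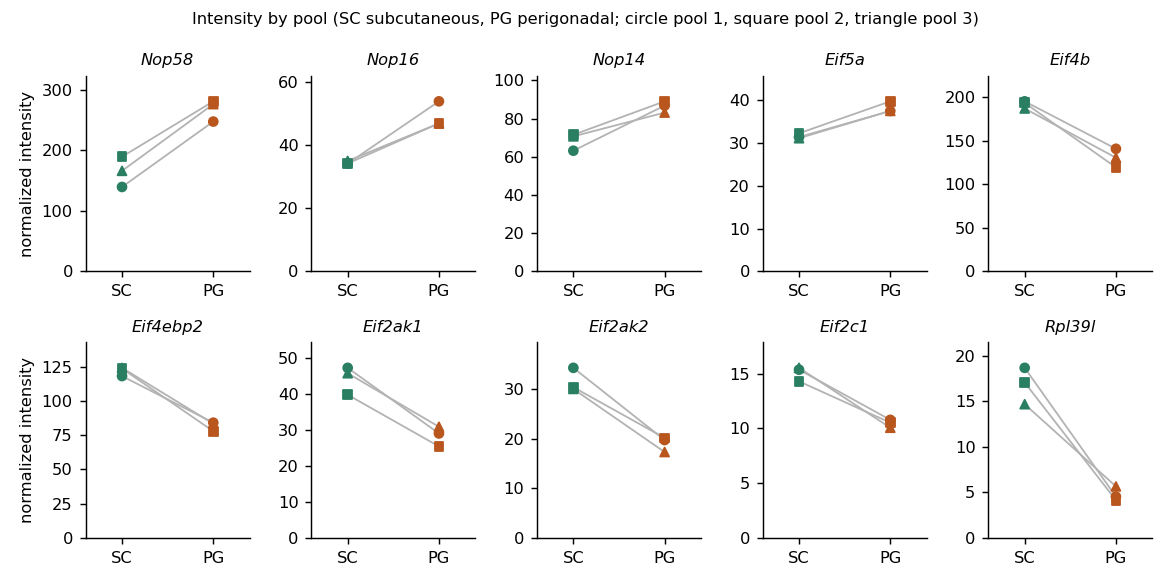
Normalized intensity (vertical axes from 0, linear) of 10 members in each of the 6 pools, with depots marked by colour, pool numbers by marker shape and lines joining equally numbered pools. Nop58 and Nop16 are higher in all perigonadal pools, and Eif4b, Eif4ebp2, Eif2ak1, Eif2ak2 and Rpl39l lower.

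Of the 6 helicase members 4 had a negative difference and 1 was called. Ddx28, which takes part in mitochondrial ribosome assembly, read 7.11, 5.98 and 6.67 in subcutaneous and 5.33, 4.82 and 4.60 in perigonadal pools (-0.36 ± 0.089, called), without overlap. This call was lost when any 1 pool pair was left out and with pseudocounts of 0 or 16, and its difference was -0.11 with 16. Dhx8, which releases messenger RNA from the spliceosome, read 15.1, 12.5 and 15.1 against 11.8, 10.2 and 12.1 (-0.30 ± 0.085, not called). Ddx10, whose yeast counterpart acts in small-subunit assembly, read 31.3, 34.8 and 34.1 against 38.7, 42.4 and 38.02 (0.24 ± 0.087, not called). Both were without overlap, as was Dhx57 (-0.25, not called). Ddx43 (-0.21) and Ddx51 (0.20) were below the array median in all 6 pools and not called.

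The hnRNP proteins, which package nuclear messages and steer splicing, were led by Hnrnpa3 with 6 probe sets at 0.16 to 0.26. The probe set with the largest difference read 267, 279 and 290.4 against 338, 338 and 324, without overlap, and none of the 6 was called. Hnrnpa2b1 read 242, 265 and 253 against 278, 303 and 284 (0.19 ± 0.084, not called). Hnrnpul1 was on the negative side at -0.13. Prpf8, the core protein of the U5 snRNP, read 79.8, 87.2 and 78.4 against 67.4, 61.7 and 64.2 (-0.34 ± 0.093, not called). The depots did not overlap for these 3 genes.

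Lists of related genes outside the members were thinly named, each gene only because the authors' test selected it. Of the 3541 selected probe sets with array values, 783 were called higher and 1049 lower. Of all probe sets, 4.05% were called higher and 5.47% lower. Whether any list departed from these shares was not tested, and nothing is read from the direction of its calls. Of 51 spliceosome subunits 4 were named, all negative, and 1 was called, Sf3a1 of the U2 snRNP (29.95 and 21.98, -0.43). Of 49 splicing regulators 7 were named, with 1 called higher, Khdrbs3 (0.70), and 2 lower, Nova1 (192 and 87.9, -1.17) and Celf1 (-0.51). Of 48 decay genes 12 were named and 2 called, both lower: Btg1 (182 and 119, -0.59), which promotes deadenylation, and the decapping cofactor Dcp1a (-0.53). Of 28 mTOR and MYC genes 3 were named. Deptor, an inhibitor of mTOR, was higher (20.0 and 27.0, 0.42, called) and Larp6, which binds collagen messages, lower (20.4 and 11.7, -0.75, called). Of 25 elongation and termination genes 2 were named and none was called, Eef2 (-0.17) and Etf1 (0.25), and of 22 tRNA synthetase genes only Eprs was named (0.38, called higher). Of 19 dissociation and immediate early genes 6 were named. Among these 3 were called higher, Nr4a2 (1.79), Hspb1 (1.05) and Egr2 (0.86), and 2 lower, among them Dnajb1 (-0.62). Heat shock genes thus stood on both sides.

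Ribosomal proteins were among the members nearest the selection threshold. In the authors' deposited table these were a Rps25 probe set at a p of 0.0491, Ddx43 at 0.0491 and Rps23 at 0.0490. Just outside, the recomputed paired test gave 0.05001, 0.05001 and 0.05003 for 3 probe sets, which have no name here, with differences of 0.16, -0.35 and -0.29. Ribosomal protein genes outside the table are not named here, so the share of all ribosomal proteins that the members make up is not known.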

How the data were processed

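Gene expression in 6 pools was measured on Affymetrix arrays. The authors deposited 1 normalized intensity per probe set and array. Partek is named per the submitters' processing notes. Its version and how background was corrected and arrays were normalized: not given in the sources used here. Precision is limited by the number of arrays. Per the file headers, the authors' table of comparisons holds mean log2 intensities and their difference, a ratio, a signed fold (a score), the t score and the p-value, unadjusted, from a paired t-test. Gene names came from it: 121 members were matched to the RefSeq table by accession and 15 by symbol, and 3 symbols have changed.

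Members were joined to the value table by transcript cluster (136 of 136). Differences were fitted in limma (version 3.58.1, under R version 4.3.3), by lmFit with eBayes and the pool number as a fixed block, without a filter, on log2(intensity + 1) of all 23531 probe sets, with Benjamini-Hochberg adjustment at 0.05. Residual degrees of freedom were 2 and the prior added 5.24. The fit was tested on simulated arrays without pool effects. It recovered 70% of log2 differences of size 1 and 96% of size 2, with 1 false call among 167. Smaller differences, such as those of most members, were not simulated. Adjusted p-values rest on the spread of the depot difference across pool pairs, moderated by that of all probe sets. The block follows the authors' paired test. A paired t-test recomputed on log2 values gave a p within 10% of the deposited one for 136 of 136 members. Deviations of equally numbered pools correlated at 0.17, 0.16 and 0.053 over all probe sets, so the values themselves show little pairing. The promoter motifs were searched on RefSeq windows from 250 bases before to 50 after the start.

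The members, gene lists and tests were chosen with earlier results of these data known. Named are up to 4 members with the largest positive and 4 with the largest negative difference per class, all probe sets of genes with several (as ranges), the 3 members nearest the selection threshold, and up to 4 genes per list; Rpl22, Rpl36, Rpl41, Rps6, Ifih1 and Bop1 are examples chosen after their values were seen. Values of 1 ribosomal protein gene are not reported here. Alternatives changed the block, the pseudocount (0, 16), the normalization, dim probe sets, probe sets per symbol, symbols and pool pairs.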

Additional observations from a re-analysis of the deposited data

How the results depend on the processing

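No member changed the sign of its difference under any alternative run. With a pseudocount of 16, 7 members were called higher and 13 lower. Without the replicate block, 3 members were called higher and 10 lower, and 943 and 1316 of all probe sets; the equally numbered pools share a number, with deviations correlated at 0.17, 0.16 and 0.053. Leaving out each pool pair in turn called 1 to 2 members higher and 4 to 6 lower, and 529 to 1068 of all probe sets higher and 660 to 1408 lower; the lowest counts of all probe sets, 529 and 660, came without pair 1, and 716 were lower without pair 2. The methods' t-test called 16 members higher and 120 lower unadjusted, as the selection requires, and 1524 and 2017 of all probe sets; after Benjamini-Hochberg it called 0 members and 0 probe sets, where limma called 952 and 1286.

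Quantile normalization moved the median difference of all members to -0.068, of large-subunit proteins to -0.069, small-subunit proteins -0.054, initiation factors -0.15, kinases -0.58 and polymerase subunits -0.16. Centring arrays on their medians gave -0.10 for all members and -0.10 for large-subunit proteins. A pseudocount of 16 gave -0.10 for initiation factors, -0.44 for kinases, -0.078 for helicases, -0.13 for polymerase subunits and 0.37 for nucleolar proteins, and a pseudocount of 0 gave -0.27 for helicases. Naming members by current symbol, an alternative chosen after seeing the data, gave -0.15 for initiation factors without the Argonautes. The pseudocount shrinks dim probe sets by construction; the cause of the other shifts was not tested. The median ribosomal protein difference (-0.096) is close in size to the median moderated error (0.084), and 3 members near the bottom of the scale have little signal over background.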

Other observations

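By current name, 2 probe sets outside the members would belong to the nucleolar class. Cirh1a, now Utp4, of the small-subunit processome, read 21.2, 29.2 and 24.4 in subcutaneous and 37.2, 42.5 and 42.1 in perigonadal pools (0.69 ± 0.094, called higher). Gltscr2, now Nop53, which acts in large-subunit assembly, read 268, 244 and 247 against 228, 216 and 227 (-0.17 ± 0.086, not called), without overlap. Utp4 thus stood on the side of Nop58, Nop16 and Nop14 and Nop53 did not.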
